A study of Mus musculus with 20 samples.

Results

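Integrin subunits are the cell surface proteins through which cells hold on to the matrix, and 10 of their genes were followed through the abdominal aorta of mice. The members were chosen by name: the alpha subunit genes Itga1, Itga3, Itga5, Itga7, Itga8, Itga9 and Itgav, and the beta subunit genes Itgb1, Itgb3 and Itgb5. The deposited values are FPKM, read fragments per transcript corrected for its length and for library size, and those of the Ensembl transcripts of a gene were added up. All 10 genes were listed, and all 10 were among the 12645 genes tested, those with a mean of at least 1 FPKM. The study compared wild-type (WT) mice with mice labelled KO, and its title names the kinase DAPK1. Of its 20 libraries 15 were used, 5 from each of 3 groups: WT mice on saline (saline WT), WT mice on the pressor hormone angiotensin II, Ang II, dosed at 500 ng/kg/min (infused WT), and KO mice on the same dose (infused KO). Strain, age, the deleted part of the gene and the cells that lose it were details not given in the sources used here. A table for KO mice given saline lists 2025 transcripts, with 0 of the 30 listed transcripts of these genes among them, and that group was not used. In the plots Ang II marks the infused groups. Libraries are named by their titles, in which NS marks the saline group.

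An integrin is a pair of one alpha and one beta subunit. The extracellular heads together bind a matrix protein or a receptor on another cell, and the short tails inside the cell bind talin and kindlin, which link the pair to actin. The alpha chain largely decides what is bound: alpha1 with beta1 binds collagens, alpha3 and alpha7 with beta1 bind laminins, alpha5 with beta1 binds fibronectin, alpha8 with beta1 binds nephronectin, alpha9 with beta1 binds tenascin-C, and alphav with beta3 or beta5 binds vitronectin. In the artery wall these receptors tie smooth muscle cells to the basement membrane and the elastic layers and pass on stretch, and alphav integrins can release active TGF-beta from its latent form.

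The depth worked out from the steps of the low values was 59 to 74.5 megareads per library. On the member with the fewest reads, Itgav, this gave 847 to 5583 reads per library, a counting error of 3.44% at the lowest. The 8 contractile smooth muscle markers and the 8 endothelial markers were listed above 0 in each group, with sums of 5567 to 14505 and 139.6 to 573 FPKM. Markers of tissue around the vessel were present too: the sum of 6 brown adipocyte markers ran from 138 to 3077 FPKM and that of 6 sympathetic neuron markers from 0.465 to 844 FPKM. Dapk1 had 9.48 to 15.4 FPKM in saline WT, 3.96 to 19.9 in infused WT and 4.997 to 13.8 in infused KO, so the ranges overlapped and the KO label is not checked by these values. In these whole-tissue samples, fewer cells of a type and less RNA per cell cannot be told apart.

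Itgb1 and Itga8 were the most abundant of the 10 in each of the 3 groups. FPKM are per length, so levels can be set side by side between genes as far as the listed transcripts carry a gene's reads. Reads given to unlisted or unnamed transcripts are in none of the sums, and for Itgav 1 of 9 annotated transcripts was listed. Over the 15 libraries Itgb1 had a mean of 531.4 FPKM, Itga8 254.3, Itgb5 143.4, Itga5 130.4, Itga9 80.4, Itga3 40.7, Itga7 39.5, Itgb3 27.9, Itga1 25.8 and Itgav 5.58. Itgb1 lay above Itga8 in all 15 libraries, Itga8 above Itgb5 in 15, Itga9 above Itga3 in 15 and Itga1 above Itgav in 15. Some neighbours in this order did not keep it from library to library: Itgb5 lay above Itga5 in 12, Itga3 above Itga7 in 8 and Itgb3 above Itga1 in 9. The beta subunits added up to 707.6 ± 192 FPKM in saline WT (SD, n = 5), 770.4 ± 183 in infused WT and 629.9 ± 166 in infused KO. The alpha subunits added up to 600.6 ± 198, 635 ± 172 and 494.5 ± 143 FPKM.

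**Figure D1:**
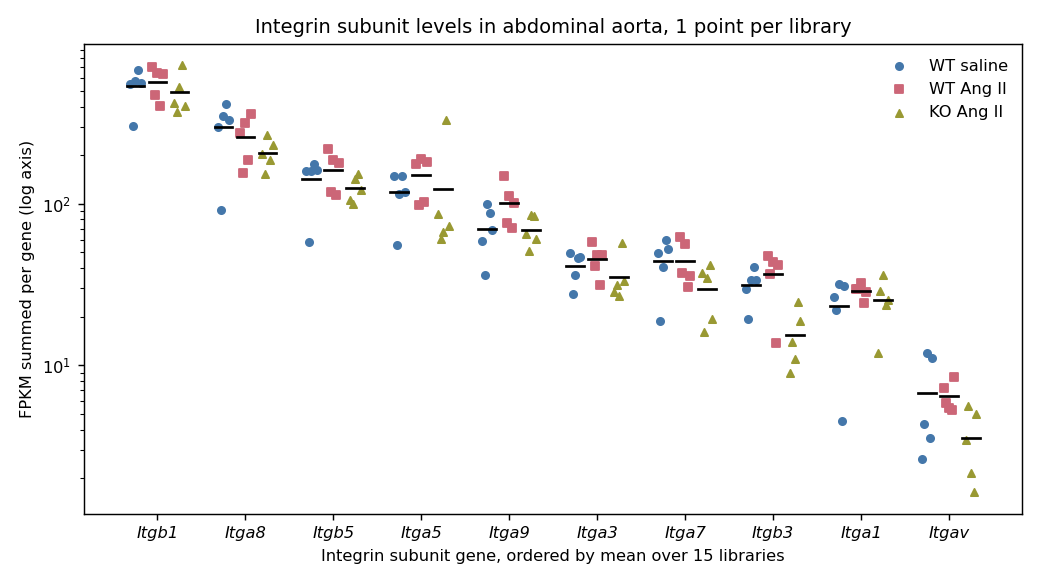
Level of each integrin subunit gene in 15 aorta libraries (FPKM summed over the Ensembl transcripts of a gene, log axis), with 1 point per library and a black line at the mean of each group of 5. Itgb1 is the highest and Itgav the lowest in each group, and the points of the 3 groups overlap for all genes.

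Itgb1 codes for beta1, the partner of most alpha subunits, on chromosome 8 (128685654 to 128733200, plus strand, GRCm38). Its FPKM were 548.7, 304.2, 576.7, 675.4 and 560.5 in saline WT libraries WTNS_369, WTNS_373, WTNS_523, WTNS_547 and WTNS_550. They were 699.2, 469.6, 642, 404.7 and 640.2 in infused WT libraries WTAng_II519, WTAng_II536, WTAngII568, WTAngII580 and WTAngII581. They were 423.5, 371.7, 529.8, 719.6 and 404.8 in infused KO libraries KOAng_II402, KOAngII537, KOAngII560, KOAngII612 and KOAngII628. The groups overlapped, with WTNS_373 lowest of all 15 and KOAngII612 highest. infused WT differed from saline WT by 0.12 on the log2 scale of FPKM + 1 (95% interval -0.40 to 0.63) and infused KO from infused WT by -0.23 (-0.75 to 0.28), which ran from -0.38 without KOAngII612 to -0.14 without KOAngII537.

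Itgb3 codes for beta3, which pairs with alphav in vessel cells and with alphaIIb in platelets, on chromosome 11 (104608000 to 104670476, plus strand). Of the 10 genes it had the largest difference between infused KO and each WT group, and neither difference passed over all genes. Its FPKM were 29.7, 19.5, 34, 40.7 and 33.6 in the saline WT libraries in the order above. They were 47.3, 37, 43.4, 13.7 and 41.8 in the infused WT libraries and 9.01, 13.9, 10.9, 24.5 and 18.9 in the infused KO libraries. WTAngII580 stood apart in its group and fell among the KO libraries, while the other 4 infused WT libraries lay above all 5 KO libraries; WTNS_373 lay within the KO range. The means were 31.5 ± 7.80, 36.6 ± 13.4 and 15.4 ± 6.29 FPKM (SD, n = 5). infused KO differed from infused WT by -1.17 (SE 0.33, 95% interval -1.87 to -0.46, limma adjusted p = 0.584), rank 68 of 12645 by p. infused KO differed from saline WT by -1.03 (SE 0.33, interval -1.74 to -0.32, limma adjusted p = 0.380). Both comparisons use the same 5 KO libraries. infused WT differed from saline WT by 0.14 (interval -0.57 to 0.85). Leaving out 1 library at a time moved the difference between infused KO and infused WT from -1.48 without WTAngII580 to -1.01 without KOAng_II402, with limma adjusted p from 0.0733 to 0.870.

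A share within a library does not depend on how the library was scaled, so each subunit was also expressed as a percentage of its class. Itgb3 made up 4.03%, 5.10%, 4.40%, 4.56% and 4.45% of the summed beta FPKM in the saline WT libraries. It made up 4.90%, 5.92%, 4.99%, 2.58% and 4.86% in infused WT and 1.67%, 2.86%, 1.60%, 2.74% and 3.46% in infused KO. The infused KO libraries lay below all saline WT libraries, and below all infused WT libraries but WTAngII580. The mean share was 2.46% ± 0.804 in infused KO against 4.51% ± 0.385 in saline WT (SD, n = 5; two-sided exact permutation p = 0.00794, the smallest that 5 against 5 libraries allow) and 4.65% ± 1.24 in infused WT (exact permutation p = 0.0317). Over the 30 shares compared, 10 genes in 3 comparisons, both had an adjusted p of 0.238 and neither passed. A share at the smallest exact p goes below that value only where other shares have a low p as well. Shares of a class add up to the whole, so they are tied. The share of Itgb1 was 77.4% ± 2.28 in infused KO and 74.4% ± 1.42 in infused WT (exact permutation p = 0.0397, adjusted p = 0.238). Platelet markers, which include the gene of the platelet partner of beta3, summed to 25.7 to 48 FPKM in saline WT, 42.7 to 138.5 in infused WT and 25.3 to 43 in infused KO. All 5 tested markers had a negative difference between infused KO and infused WT, with a median of -0.697. Between infused KO and saline WT 3 of these markers were negative and 2 positive, with a median of -0.330. Their part in the Itgb3 values was not tested.

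**Figure D2:**
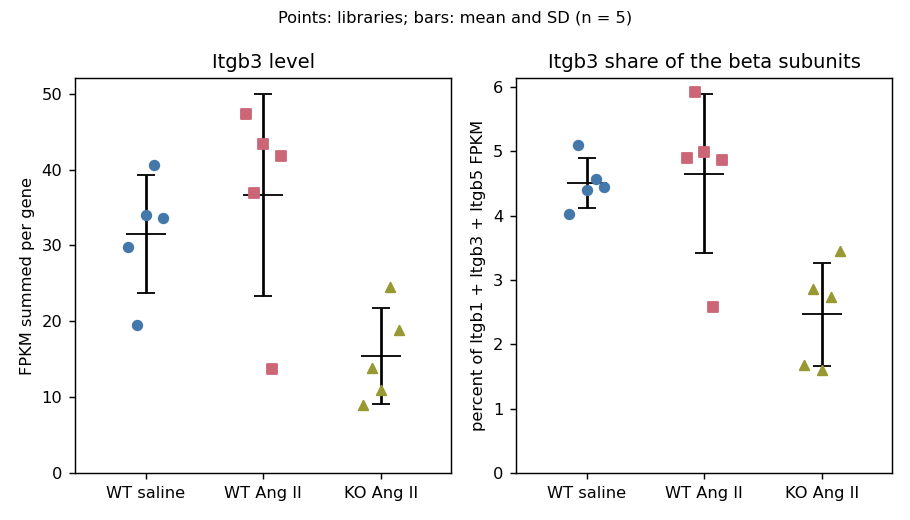
Itgb3 in each library of 3 groups, as FPKM (left) and as a percentage of the summed FPKM of Itgb1, Itgb3 and Itgb5 (right), with points for libraries and bars for mean and SD (n = 5). The infused KO points run from 9.01 to 24.5 FPKM and from 1.60% to 3.46%, and 1 infused WT library lies among them in both.

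Itgb5 codes for beta5, a partner of alphav that binds vitronectin, on chromosome 16 (33829665 to 33949338, plus strand). Its FPKM were 159.3, 57.8, 160.4, 175.6 and 162.1 in saline WT, 218.4, 118.3, 185.4, 112.7 and 178.6 in infused WT, and 106.1, 100.3, 142.5, 152.3 and 121.9 in infused KO. WTNS_373 stood far below the rest of its group and the 3 groups overlapped. infused KO differed from infused WT by -0.35 (95% interval -0.97 to 0.26). Its reads were divided by the authors between 2 main transcripts that end differently in the part coding for the tail inside the cell. Itgb5-202 (ENSMUST00000115028) has 29 more bases at the end of its exon 14 of 15 than Itgb5-201 (ENSMUST00000069345), and these shift the reading frame of the last exon, whose coding part is 93 bases long in Itgb5-202 and 173 in Itgb5-201. The sequence of that exon is shown because it is what tells the transcripts apart, from the GENCODE M21 transcript on GRCm38, chr16:33947715-33947881, plus strand, with the extra bases in capitals.
Itgb5-202 exon 14: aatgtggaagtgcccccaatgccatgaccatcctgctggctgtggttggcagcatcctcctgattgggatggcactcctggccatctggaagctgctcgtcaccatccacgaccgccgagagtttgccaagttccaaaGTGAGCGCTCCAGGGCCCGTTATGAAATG

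Itgb5-202 had 93.4, 44.9, 133.2, 152 and 74.5 FPKM in saline WT, 85.2, 110.9, 82.7, 84.6 and 63.2 in infused WT, and 36.4, 41.5, 55.4, 59.7 and 76.7 in infused KO. Itgb5-201 had 65, 13, 26.6, 23.4 and 86.3 FPKM in saline WT, 132.6, 6.61, 101, 27.7 and 113.7 in infused WT, and 68.6, 58.4, 86.6, 86.8 and 44.9 in infused KO. Of the pair, Itgb5-202 thus made up 46.3% to 86.6% in saline WT, 35.7% to 94.4% in infused WT and 34.7% to 63.1% in infused KO. In saline WT it was the larger of the pair in 4 of 5 libraries, in infused WT in 2 of 5, and in infused KO in 1 of 5, KOAngII628. Tested as a transcript over all 20766 transcripts, Itgb5-202 differed between infused KO and saline WT by -0.80 (limma adjusted p = 0.637) and between infused KO and infused WT by -0.68 (limma adjusted p = 0.712), so neither passed. The percentages were looked at after the values were seen and were not tested. Transcripts that share nearly all of their bases are told apart by few reads, and the program that divided them is not given in the sources used here.

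**Figure D3:**
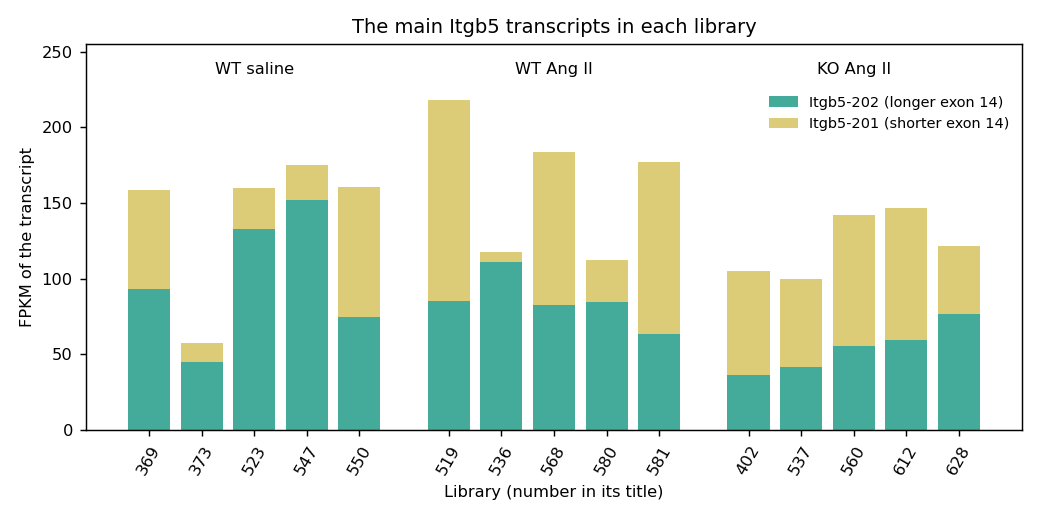
FPKM of Itgb5-202 (longer exon 14) and Itgb5-201 (shorter exon 14), stacked, in each of 15 libraries named by the number in their title. Itgb5-201 ranges from 6.61 to 132.6 FPKM within infused WT alone, and Itgb5-202 is at most 76.7 FPKM in the infused KO libraries.

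Itga8 codes for alpha8, the nephronectin receptor of smooth muscle, and was the most abundant alpha subunit (chromosome 2, 12106632 to 12301922, minus strand). Its FPKM were 300.5, 92, 348.9, 414.5 and 331.9 in saline WT, 272.6, 154.1, 314.2, 185.7 and 361.7 in infused WT, and 202.7, 153.2, 265, 186.7 and 230.3 in infused KO. Apart from WTNS_373, all saline WT libraries lay above all infused KO libraries; with it the groups overlapped. infused KO differed from saline WT by -0.38 (95% interval -1.15 to 0.39, limma adjusted p = 0.852), and infused WT from saline WT by -0.12, the only negative difference of the 10 in that comparison. Without WTNS_373 these were -0.76 and -0.50. Its share of the alpha subunits was 47.7% ± 7.08 in saline WT and 40.1% ± 4.95 in infused WT (exact permutation p = 0.0952, adjusted p = 0.476).

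Itga5 and Itgav code for subunits that, like alpha8, bind ligands with an RGD tripeptide: alpha5 forms the fibronectin receptor (chromosome 15, 103344286 to 103366763, minus strand) and alphav the vitronectin receptors (chromosome 2, 83724397 to 83806916, plus strand). Itga5 had 148.6, 56, 115, 149.6 and 118.3 FPKM in saline WT, 176.6, 98.9, 190.3, 103 and 182.2 in infused WT, and 86.8, 60.3, 67, 330.7 and 72.4 in infused KO. KOAngII612 was the highest of all 15 libraries and the other 4 KO libraries lay below all infused WT libraries, while WTNS_373 was the lowest of all. With all libraries infused KO differed from infused WT by -0.57 (95% interval -1.47 to 0.33, limma adjusted p = 0.683), and without KOAngII612 by -1.01 (limma adjusted p = 0.390). In KOAngII612 Itga5 took 45.6% of the alpha FPKM and Itga8 25.7%, while Itga5 took 12.9% to 25.1% in the other 14 libraries.

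Itgav had 2.65, 4.31, 12, 3.55 and 11.1 FPKM in saline WT, 7.20, 5.81, 5.47, 5.32 and 8.52 in infused WT, and 3.45, 5.62, 2.14, 1.63 and 4.98 in infused KO. The saline WT libraries split into high values in WTNS_523 and WTNS_550 and low ones in the other 3, and the groups overlapped. infused KO differed from infused WT by -0.78 (95% interval -1.55 to -0.01, limma adjusted p = 0.622). These values rest on 1 of the 9 annotated transcripts, ENSMUST00000028499, the only one listed. Tested as that transcript over all 20766 transcripts, the same values of infused KO and infused WT gave a 95% interval of -1.57 to 0.006. Reads that the authors gave to their own assembled transcripts, named MERGE, carry no gene name and are in none of the sums; they took 12.2% to 15.8% of the listed FPKM of a library.

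Itga7 and Itga3 code for laminin receptors. Alpha7 is the laminin receptor of muscle cells (chromosome 10, 128933818 to 128958282, plus strand) and alpha3 that of many epithelia (chromosome 11, 95044474 to 95076801, minus strand). Itga7 is spliced with one or the other of a pair of alternative exons in its extracellular part, and the transcripts that carry them are shown because nearly all of the FPKM fell on one. The exons are 5 of 25 in each transcript, from GENCODE M21 on GRCm38, plus strand: chr10:128941445-128941576 in Itga7-202 (ENSMUST00000218290) and chr10:128941822-128941941 in Itga7-201 (ENSMUST00000099112).
Itga7-202 exon 5: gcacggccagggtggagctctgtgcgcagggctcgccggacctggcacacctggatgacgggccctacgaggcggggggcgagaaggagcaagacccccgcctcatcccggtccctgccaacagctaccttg
Itga7-201 exon 5: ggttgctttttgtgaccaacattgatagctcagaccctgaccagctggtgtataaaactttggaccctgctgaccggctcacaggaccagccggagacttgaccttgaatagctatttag

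The Itga7 exons are 132 and 120 bases long, both multiples of 3, and 72 bases were identical in a global alignment, 60% of the shorter exon. Itga7-202 had 12.8 to 55.8 FPKM in saline WT, 27.5 to 59.5 in infused WT and 13.7 to 37.2 in infused KO. Itga7-201 had 0.0826 to 0.979 FPKM in saline WT and 0.00368 to 0.114 in infused WT, at most 5.12% of the pair, and has no listed value in infused KO. Summed over transcripts, Itga7 had 49.4, 18.8, 40.6, 59.5 and 52.2 FPKM in saline WT, 62.6, 37.2, 56.5, 30.4 and 35.8 in infused WT, and 37.2, 16.1, 34.8, 41.9 and 19.3 in infused KO. The groups overlapped, with WTNS_373, KOAngII537 and KOAngII628 lowest. infused KO differed from infused WT by -0.60 (95% interval -1.31 to 0.12, limma adjusted p = 0.634). Itga7 is also a gene of skeletal muscle, whose 9 markers summed to 1.73 to 205.8 FPKM in saline WT, 2.84 to 165.8 in infused WT and 1.79 to 26.7 in infused KO. Their part in the Itga7 values was not tested.

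Itga3 had 49.4, 27.7, 36.4, 46.5 and 46.7 FPKM in saline WT, 58, 41.5, 48.2, 31.2 and 48 in infused WT, and 28.3, 31.4, 26.8, 57.2 and 33.1 in infused KO. KOAngII612 stood far above the other 4 KO libraries, and the groups overlapped. The difference between infused KO and infused WT was -0.38 (95% interval -0.85 to 0.10, limma adjusted p = 0.638). Of the summed FPKM of Itga3-202 (ENSMUST00000107739) and Itga3-201 (ENSMUST00000001548), Itga3-202 took 0.745% to 31.1% in infused WT. It took 1.97% to 24.9% in saline WT and 1.00% to 25.6% in infused KO, so the groups overlapped over nearly their whole range.

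Itga1 and Itga9 code for the collagen receptor alpha1 (chromosome 13, 114953096 to 115101964, minus strand) and for alpha9, which binds tenascin-C and VCAM1 (chromosome 9, 118606690 to 118901003, plus strand). Itga1 had 26.5, 21.9, 31.7, 4.55 and 31.1 FPKM in saline WT, 29.7, 29.7, 32.5, 24.5 and 28.6 in infused WT, and 12, 28.9, 36.4, 23.5 and 25.4 in infused KO. WTNS_547 was the lowest of all 15 libraries in Itga1 and the highest in Itga8, and the groups overlapped. infused WT differed from saline WT by 0.54 (95% interval -0.35 to 1.43, limma adjusted p = 0.941), and without WTNS_547 by 0.069. Itga9 had 58.6, 36.4, 99.6, 87.4 and 69 FPKM in saline WT, 149.4, 76.1, 111.2, 70.5 and 101.8 in infused WT, and 65, 50.9, 85.7, 84.1 and 60.9 in infused KO. WTAng_II519 was the highest, and the groups overlapped. The difference of Itga9 between infused WT and saline WT was 0.56 (SE 0.27, interval -0.01 to 1.13, limma adjusted p = 0.941) and 0.34 without WTNS_373, and between infused KO and infused WT -0.52 (interval -1.09 to 0.05, limma adjusted p = 0.630). Of the alpha FPKM, Itga9 made up 12% ± 2.33 in saline WT and 16.1% ± 2.49 in infused WT, and Itga5 19.9% ± 2.70 and 23.5% ± 1.06 (SD, n = 5; exact permutation p = 0.0317 for each, adjusted p = 0.238). These higher shares and the lower share of Itga8 given above are tied, because the shares of a class add up to the whole.

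Counted over the list, 0 of the 10 members passed limma in any of the 3 comparisons. In infused WT against saline WT, 0% of the 12645 genes passed; 9 of 10 members had a positive difference, against 52.6% of all genes, the median was 0.14 against 0.01 over all genes, and 0 members had an unadjusted p under 0.05, against 4.88%. In infused KO against infused WT, 0% of all genes passed; 10 of 10 members had a negative difference, against 51.4% of all genes, the median was -0.45 against -0.01, and 2 members, Itgb3 and Itgav, had an unadjusted p under 0.05 and a negative difference, against 4.24%. In infused KO against saline WT, 0.103% of all genes passed; 8 of 10 members had a negative difference, against 47.3%, the median was -0.22 against 0.02, and 1 member, Itgb3, had an unadjusted p under 0.05 and a negative difference, against 4.32%. In each comparison the 2 groups overlapped for all 10 members, while they did not overlap for 0.996%, 1.12% and 1.83% of all genes. Without WTAngII580, 7 genes passed in infused KO against infused WT, none of them a member. Without WTNS_373 the count of positive differences in infused WT against saline WT was 5 of 10 in place of 9. The first 2 comparisons share the infused WT libraries, so a low or high value there enters both with opposite signs.

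**Figure D4:**
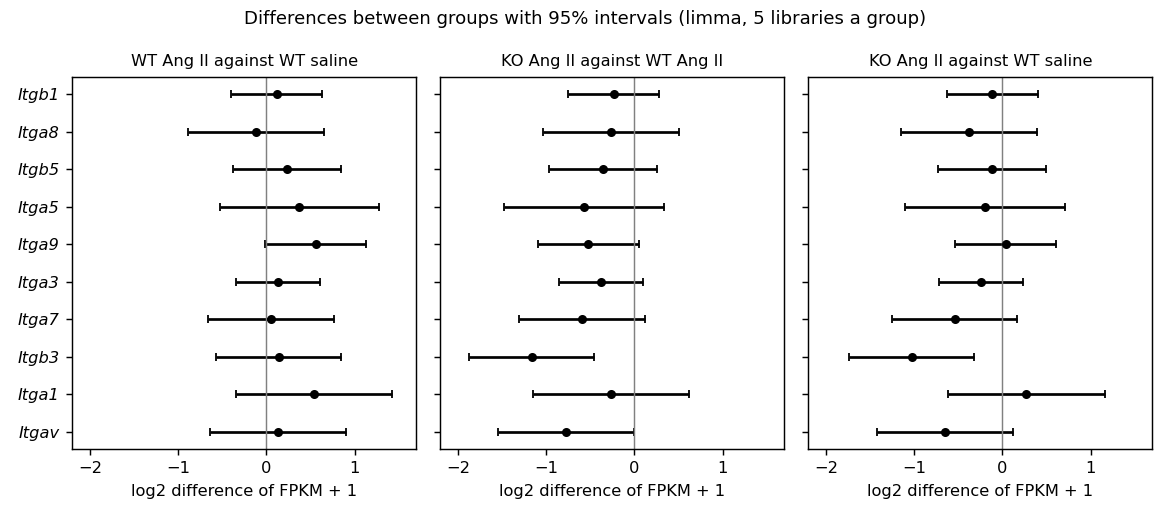
Difference between groups for each integrin subunit gene on the log2 scale of FPKM + 1, with 95% intervals from limma, in 3 comparisons of 5 libraries against 5. The interval of Itgb3 lies below 0 in both comparisons with infused KO, that of Itgav in infused KO against infused WT ends at -0.01, and the other intervals include 0.

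Many of the members were high or low in the same libraries, Itga1 and Itgav less so. Ranked over the 15 libraries, WTNS_373 was among the 3 lowest for 8 of 10 members and KOAngII537 for 6, while WTAng_II519, WTAngII568 and WTAngII581 were each among the 3 highest for 6. The sum of the 10 members was 638.5 FPKM in WTNS_373 and 1721 in WTAng_II519. The 4 libraries with the highest sums of the members were the 4 with the highest sums of the 8 contractile markers, and the sets of the 4 lowest shared 3. Contractile markers summed to 5744 to 12887 FPKM in saline WT, 6971 to 14505 in infused WT and 5567 to 10133 in infused KO. In infused KO against infused WT, 7 of these 8 markers had a negative difference (median -0.41), and Acta2, the smooth muscle actin, had 6335 FPKM in infused WT and 4431 in infused KO. With the mean of the contractile markers as a covariate, 7 of 10 members had a negative difference in infused KO against infused WT, the median being -0.20, and Itgb3 differed by -0.91 (limma adjusted p = 0.897). With the means of skeletal muscle, brown adipocyte and sympathetic neuron markers as covariates, 3 of 10 were negative with a median of 0.05, and Itgb3 differed by -0.66 (limma adjusted p = 0.889). In the same libraries all 6 brown adipocyte markers had a positive difference between infused KO and infused WT, with a median of 1.002, as had all 6 sympathetic neuron markers, with a median of 2.38. None of them passed limma, and 1 had an unadjusted p under 0.05. All 5 Schwann cell markers had a positive difference as well (median 0.67), as had all 6 white adipocyte markers (median 0.37). All 8 fibroblast markers had a negative difference there (median -0.31), as had all 6 tested skeletal muscle markers (median -0.72). Of the 8 endothelial and the 8 macrophage markers, 5 each were negative. In infused WT against saline WT all 8 fibroblast markers had a positive difference (median 0.18), as had all 8 macrophage markers (median 0.56). There 7 of 8 contractile markers (median 0.27), 6 of 8 endothelial (0.02) and 3 of 5 Schwann cell markers (0.05) were positive. All 6 brown adipocyte markers were negative (median -1.07), as were all 6 sympathetic neuron (-1.47) and all 6 tested skeletal muscle markers (-1.08). Of the white adipocyte markers 5 of 6 were negative (median -0.11). None of these passed limma.

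Markers of intestinal epithelium, a tissue outside the aorta, also moved with the groups. Their sum was 3.63 to 7.68 FPKM in saline WT, where 7 of 8 were at 0 and Lyz1 made up the sum, 6.86 to 33.8 in infused WT and 32.3 to 68.2 in infused KO. Reg3b, an antimicrobial lectin of the gut, was at 0 in all saline WT libraries and had 1.62 ± 2.36 FPKM in infused WT and 9.52 ± 2.15 in infused KO (SD, n = 5). Of the 6 tested, 4 passed limma in infused KO against saline WT, Reg3b, Zg16, Defa24 and Defa30 (adjusted p = 0.0115 for each). They are among the 13 genes, 0.103% of all tested, that passed there. All 4 were at 0 in saline WT and reached the mean of 1 FPKM needed for testing only through infused KO. For Zg16 and Defa30 the infused WT means were 0.626 and 0.695 FPKM. The list was drawn up with earlier results of these data known, so these passes are not separate support. In infused KO against infused WT 0 passed limma, and the smallest adjusted p was 0.236. An unadjusted p under 0.05 and a positive difference were found for 5 of the 6, against 468 of all 12645 genes. The part of this tissue, of Schwann cells, of white fat, of fibroblasts, of macrophages and of endothelium in the members' values was not tested. That of skeletal muscle, brown fat and sympathetic neurons was not tested beyond the covariates.

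**Figure D5:**
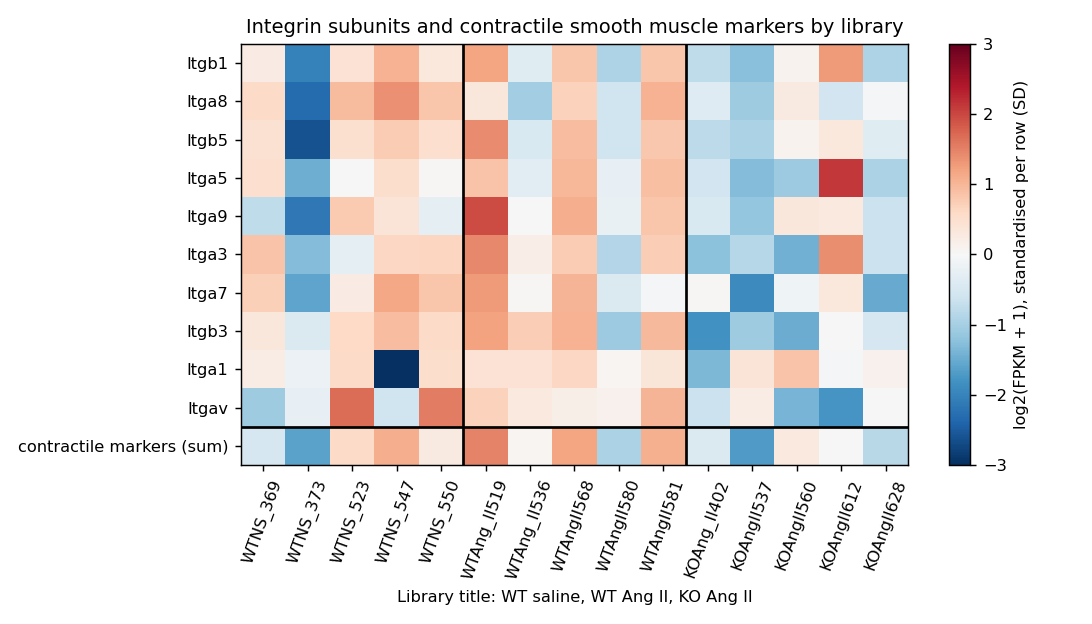
Standardised log2(FPKM + 1) of the 10 integrin subunit genes and of the summed contractile smooth muscle markers (bottom row) in 15 libraries, with black lines between saline WT, infused WT and infused KO (red high, blue low, in SD of each row). WTNS_373 and KOAngII537 are low in most rows, WTAng_II519, WTAngII568 and WTAngII581 are high, and Itga1 and Itgav follow patterns of their own.

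Among the members, Itgb1 and Itgb5 had the most similar pattern. After each gene was standardised over the 15 libraries, they differed by 0.265 SD per library on average, against a median of 0.682 over the 45 pairs of members and a highest value of 1.20. Itga1 and Itgav lay 0.839 to 1.20 from every other member, and the pairs of the other 8 differed by 0.265 to 0.786. Itga5 and Itgb1, partners in the fibronectin receptor, differed by 0.377, Itga9 and Itgb5 by 0.388, and Itga8 and Itgb5 by 0.390. The other partners named above lay further apart than Itga5 and Itgb1. Itgb1 differed by 0.446 from Itga3, 0.448 from Itga9, 0.468 from Itga7, 0.510 from Itga8 and 0.997 from Itga1. Itgav differed by 0.874 from Itgb3 and 1.06 from Itgb5. Among 11467 of the genes tested, which leave out those known only by a clone or model name, the closest to Itgb1 were Clic4 (0.166), Ltbp1, which codes for a binding protein of latent TGF-beta (0.183), and Atp10a, a phospholipid flippase (0.194), where the median gene differed from it by 1.05. Closest to Itga8 were Jmy (0.323), a regulator of actin assembly, Col4a6 (0.323), a chain of basement membrane collagen, and Xpr1 (0.333), a phosphate exporter, where the median gene differed by 1.08. These are descriptions over the same 15 libraries, with no test.

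Of the 16 other subunit genes on the list, 12 were listed and 10 tested, all at lower levels than 9 of the 10 members. Itga6, a laminin receptor subunit, had a mean of 7.65 FPKM, Itgb4, its partner in epithelia, 5.97, Itgb2, the beta subunit of leukocytes, 5.69, and Itgam, one of its alpha partners, 3.14. Of the 10, 0 passed limma in any comparison; 9 had a positive difference in infused WT against saline WT, against 52.6% of all genes, 7 a negative one in infused KO against infused WT, against 51.4%, and 3 a negative one in infused KO against saline WT, against 47.3%. An unadjusted p under 0.05 was reached by 0, 0 and 1 of them, and that 1 had a positive difference. Of all genes 4.88% reached it in infused WT against saline WT. With a negative difference 4.24% did so in infused KO against infused WT and 4.32% in infused KO against saline WT. With a positive difference 513 of all 12645 genes did so in infused KO against saline WT. Itgb2 had 3.80 ± 1.30 FPKM in saline WT, 5.68 ± 1.11 in infused WT and 7.58 ± 2.86 in infused KO (SD, n = 5), a difference of 0.79 between infused KO and saline WT (limma adjusted p = 0.358). Macrophage markers, which belong to cells that carry Itgb2, summed to 227 to 331 FPKM in saline WT, 336 to 469 in infused WT and 241 to 516 in infused KO; their part in the Itgb2 values was not tested.

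Of 28 ligand genes, all were tested and 0 passed limma in any comparison. An unadjusted p under 0.05 was reached by 2 in infused WT against saline WT, against 4.88% of all genes. In infused KO against infused WT 3 reached it. Of these, 2 had a negative difference, against 4.24% of all genes with such a p and a negative difference. The remaining 1 had a positive difference, against 468 of all 12645 genes with such a p and a positive difference. In infused KO against saline WT 1 reached it with a positive difference, against 513 of all 12645 genes. With a negative difference 0 did, against 4.32% of all genes. In infused WT against saline WT 22 had a positive difference (median 0.24), against 52.6% of all genes. In infused KO against infused WT 22 had a negative one (median -0.22), against 51.4%, and in infused KO against saline WT 12 (median 0.08), against 47.3%. The most abundant were Fn1, fibronectin, at a mean of 615.2 FPKM, Ccn2, a matricellular protein, at 612.8, Col3a1, a fibrillar collagen, at 581.1, and Postn, periostin, at 553.8. Col3a1 had 427.8 ± 169 FPKM in saline WT, 698.9 ± 177 in infused WT and 616.7 ± 287 in infused KO, and its difference between the WT groups was 0.77 (limma adjusted p = 0.941). A pair of ligands of alphav beta3, picked after their values were seen, went opposite ways in infused KO against infused WT. Spp1, osteopontin, had 5.36 ± 1.91 FPKM in infused WT and 23.8 ± 25.6 in infused KO, with all KO libraries above all infused WT libraries (difference 1.58, limma adjusted p = 0.594). It was the only 1 of the 28 ligand genes whose groups did not overlap there, against 1.12% of all genes. Fbn1, fibrillin-1, had 48.6 ± 12.3 and 20.4 ± 13.8 FPKM (difference -1.46, limma adjusted p = 0.594).

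Of 30 genes of the adhesion complex inside the cell, 29 were tested and 0 passed limma in any comparison. An unadjusted p under 0.05 was reached by 0 in infused WT against saline WT, against 4.88% of all genes. In infused KO against infused WT 1 reached it, with a negative difference, against 4.24% of all genes with both. In infused KO against saline WT 1 reached it with a positive difference, against 513 of all 12645 genes. With a negative difference 0 did, against 4.32% of all genes. In infused KO against infused WT 23 had a negative difference (median -0.23), against 51.4% of all genes, in infused WT against saline WT 23 had a positive one (median 0.17), against 52.6%, and in infused KO against saline WT 18 were negative (median -0.03), against 47.3%. Flna, an actin crosslinker that binds beta tails, had a mean of 517.8 FPKM, Actn1 and Actn4, alpha-actinins, 344.4 and 265.5, and Lims2, an adaptor that binds integrin-linked kinase, 145.4. Lims2 had 165.8 ± 32.8 FPKM in infused WT and 121.2 ± 16.2 in infused KO, a difference of -0.44 (limma adjusted p = 0.622), and Actn4 273.8 ± 56.7 and 274.6 ± 58.2 (SD, n = 5).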

How the data were processed

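RNA of mouse abdominal aorta was sequenced (per the labels, TRIzol extraction and a NEBNext Ultra kit from 1 µg of RNA), and the deposited FPKM per transcript were made by the authors. The submitters' processing notes name bcl2fastq, FastQC, fastp and mm10; the aligner and quantifier: not given in the sources used here. GENCODE M21 (GRCm38), which gave genes and positions, held 32618 of 32654 Ensembl transcripts listed for WT and 32908 of 32945 listed for infused KO. FPKM were summed per gene, with transcripts unlisted in a table at 0. Multiplied by transcript length, FPKM came in whole steps (98.7% to 99.1% of values below 50 reads within 0.05 of a whole number), which gave the depth; no test used reads.

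Genes with a transcript in both kinds of table and a mean of at least 1 FPKM were tested with limma 3.58.1 in R 4.3.3 (trend, robust) on log2(FPKM + 1), 15 libraries in 1 model, with Benjamini-Hochberg adjustment over all 12645 genes and a threshold of 0.05; intervals are 95%. Class shares were tested with two-sided exact permutation tests. The fit was tested on simulated data with noise drawn separately for each gene. Shifts shared by many genes of a library were not covered by it. All 10 members are named; of the other lists the 4 most abundant genes and any that pass, of marker lists the most abundant marker, and for the most abundant alpha and beta member the 3 genes with the smallest mean absolute difference of standardised values; Itgb2, Spp1, Fbn1, Lims2 and Reg3b are also described for their values. The members and lists were chosen with earlier results of these data known. Labels do not say that libraries are separate animals, so p-values measure the spread between these samples. The KO saline tables were not used; their description calls them WT, while title and genotype call them KO. Alternatives covered the pseudocount (0.1), the filter, scaling, unlisted transcripts, the groups fitted, weights, covariates and libraries left out.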

Additional observations from a re-analysis of the deposited data

Results flagged for a closer look

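In 30 groups of 5 libraries (10 members in 3 groups), 3 had a library whose gap to its nearest neighbour was over 0.71 of the group's range. For independent, normally distributed values chance gives about 1 in 20 groups. The values here are FPKM without logarithm, and many members were high or low in the same libraries. The count of 3 can therefore not be set against that rate. Itga5 in KOAngII612 had 330.7 FPKM, against 60.3 to 86.8 in the other 4 infused KO libraries (gap 0.902 of the range). Itga3 in the same library had 57.2 FPKM, against 26.8 to 33.1 (0.795). Itgb5 in WTNS_373 had 57.8 FPKM, against 159.3 to 175.6 in the other 4 saline WT libraries (0.861).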

How the results depend on the processing

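Over 560 values of a member, comparison and alternative, 0 passed limma at an adjusted p of 0.05 and 40 had the opposite sign to the value reported. Of 330 share differences under alternatives, 23 had the opposite sign and 0 passed. With so few libraries a share can pass only where several shares have a low p together. The cause of the changes below was not tested. With the means of skeletal muscle, brown adipocyte and sympathetic neuron markers as covariates, the log2 differences of infused WT against saline WT were -0.18 for Itga3, -0.13 for Itga5, -0.35 for Itga7, -0.26 for Itgb1, -0.41 for Itgb3 and -0.14 for Itgb5, and 7 members were negative. Those of infused KO against infused WT were 0.060 for Itga1, 0.040 for Itga3, 0.25 for Itga5, 0.023 for Itga7, 0.16 for Itga8, 0.23 for Itgb1 and 0.18 for Itgb5, and 3 members were negative. Those of infused KO against saline WT were 0.12 for Itga5 and 0.043 for Itgb5, and the genes past the threshold went from 13 to 0. With the contractile marker covariate, added after seeing the data, as was the count of negative members, infused WT against saline WT gave -0.21 for Itga7, -0.071 for Itgb1, -0.029 for Itgb3 and -0.000155 for Itgb5, with 5 members negative. It gave 0.18 for Itga8, 0.059 for Itgb1 and 0.016 for Itgb5 in infused KO against infused WT, and 0.015 for Itgb5 in infused KO against saline WT. With sample quality weights Itga7 was -0.073 in infused WT against saline WT, with 2 members negative, Itga9 was -0.12 in infused KO against saline WT, and 30 genes passed there. Without WTAngII580 and WTAngII581, 14 genes passed in infused KO against infused WT. With a pseudocount of 0.1, Itgb5-203 (ENSMUST00000134262) differed by -0.15 in infused KO against infused WT.

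Leaving out each library in turn gave 0 to 1, 0 to 7 and 7 to 15 genes past the threshold in infused WT against saline WT, infused KO against infused WT and infused KO against saline WT, and 0 to 5 negative members in the first of these. Signs changed there for Itga7 (-0.22 to 0.19), Itga8 (-0.50 to 0.050), Itgav (-0.091 to 0.37), Itgb1 (-0.073 to 0.23), Itgb3 (-0.019 to 0.45) and Itgb5 (-0.061 to 0.36), and in infused KO against saline WT for Itga1 (-0.20 to 0.51) and Itga9 (-0.18 to 0.18). In percentage points, share differences changed sign in infused WT against saline WT for Itga1 (-0.688 to 1.29), Itga3 (-0.614 to 0.753), Itga7 (-0.580 to 0.379) and Itgb3 (-0.178 to 0.657). They did so in infused KO against infused WT for Itga1 (-0.139 to 1.26), Itga3 (-0.568 to 0.408) and Itga5 (-6.85 to 1.31), and in infused KO against saline WT for Itga1 (-0.0934 to 1.89), Itga3 (-0.717 to 0.650), Itga5 (-3.25 to 4.90), Itga8 (-6.82 to 0.685) and Itgb5 (-0.774 to 1.15). No paired analysis was possible because the groups share no library number. The lowest count of a member was 847 reads; what depth limits in single transcripts was not tested.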
